A study of Mus musculus with 30 samples.

Results

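The genes described here encode subunits of the BAF, INO80, SRCAP and TIP60 chromatin remodelers, the complexes that carry nuclear actin and Arp4, together with their partners. They were chosen by name, 43 genes in all, by a rule that uses no measured value, although earlier results of these data were known. Chromatin accessibility near them was measured by ATAC-seq, in which a transposase cuts open DNA and the reads are counted per window. A window was assigned to a gene when that gene had the nearest transcription start site (TSS) of a protein-coding transcript within 50 kb. Of the 305931 windows counted in the 24 h experiment 464 belonged to these genes, and of the 369846 windows of the 4 h experiment 492 did. A pair of inhibitors were compared: CK666, which blocks the Arp2/3 complex and with it actin branching, and cytochalasin D (CytoD), which caps growing actin filaments. Mesenchymal stem cells (MSCs) from mouse marrow served as control or received CK666 or CytoD for 24 h, while the other experiment compared control cells with CK666 at 4 h, in MSCs and in NIH3T3 cells, an embryonic fibroblast line. Each of these 7 groups held 3 libraries, 21 in all. The 9 libraries of siRNA-transfected MSCs were not used here. The MSCs were primary cells from the marrow of several C57BL/6J mice, NIH3T3 is a single line, and the dose, the vehicle and the culture each replicate came from are not given in the labels.

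BAF complexes slide and evict nucleosomes with the energy of ATP, and occur as canonical BAF, PBAF and non-canonical BAF, which differ in a few subunits. INO80 and SRCAP exchange histone H2A variants, and TIP60 joins such an exchange activity to a histone acetyltransferase. Actin and Arp4, the product of Actl6a, sit together on the ATPase of each of these machines, which is why the genes for these subunits are of interest where the actin of the nucleus is changed.

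Of the 43 genes 41 had at least 1 window in each experiment, while Smarcd2 and Ss18l1 had none. Smarca2 held the most windows (42 at 24 h and 40 at 4 h), with Arid1b (42 and 30) and Arid2 (32 and 37), and Phf10, Ino80e and Brd8 had 1 each. Introns held 210 and 216 of the windows, intergenic sequence 174 and 199, and 50 and 53 contained a TSS of one of the genes. The rest lay in exons, coding exons or UTRs. After the filter on low counts 455 windows were tested at 24 h, 430 in MSCs and 441 in NIH3T3 cells at 4 h, and 492 where both cell types were fitted together. Library totals ran from 14071301 to 22352180 reads in windows at 24 h, from 29239381 to 34979833 in MSCs at 4 h and from 14496058 to 27866363 in NIH3T3 cells, where CK666 replicate 1 was the shallowest. All 5 fibroblast markers had a TSS window in each experiment, of 8 mesenchymal markers 3 had one at 24 h and 5 at 4 h, and of 6 haematopoietic markers only Cd68 did. At 4 h Pdgfra, Pdgfrb and Cxcl12 stood at 547, 434 and 208 normalised counts per kb in control MSCs and at 366, 277 and 57.9 in control NIH3T3 cells. Thy1 (1.29 and 134) and Lepr (9.97 and 29.2) were nearly closed in control MSCs and higher in control NIH3T3 cells. The summed level of the fibroblast markers ran from 1251.9 to 1534.6 normalised counts per kb over the groups at 24 h and from 2994.0 to 3467.3 at 4 h. Cd68 stood at 36.6 to 44.6 at 24 h, went from 169 to 147 with CK666 in MSCs at 4 h and from 131 to 260 in NIH3T3 cells, and its part in the NIH3T3 results was not tested. ATAC-seq of a population cannot tell a window that is open in more cells from a window that is more open in each cell.

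The stretches of 300 bases that follow lie at the centre of 5 windows on which the results below turn, and were chosen after their values were seen. They were read on the + strand of GRCm38, the assembly also called mm10. Capitals mark matches on either strand to 5 short motifs searched in all windows: GGAATG (TEAD), TGANTCA (AP-1), TGTGGT (RUNX), GCGTG (AhR-ARNT) and TTGGCA (NFI). The Actl6a stretch holds 1 RUNX match, the Ing3 stretch 1 NFI and 1 RUNX match and the Actr6 stretch 1 AhR-ARNT match, while the Arid2 and Arid1a stretches hold none of these letters.
Actl6a upstream, chr3:32694172-32694471: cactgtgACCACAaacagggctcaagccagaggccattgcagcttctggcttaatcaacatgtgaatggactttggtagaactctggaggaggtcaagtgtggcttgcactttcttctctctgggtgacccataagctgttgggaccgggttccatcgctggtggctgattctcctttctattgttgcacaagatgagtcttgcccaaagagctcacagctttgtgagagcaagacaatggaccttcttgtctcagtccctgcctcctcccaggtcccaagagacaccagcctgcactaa
Arid2 upstream, chr15:96269418-96269717: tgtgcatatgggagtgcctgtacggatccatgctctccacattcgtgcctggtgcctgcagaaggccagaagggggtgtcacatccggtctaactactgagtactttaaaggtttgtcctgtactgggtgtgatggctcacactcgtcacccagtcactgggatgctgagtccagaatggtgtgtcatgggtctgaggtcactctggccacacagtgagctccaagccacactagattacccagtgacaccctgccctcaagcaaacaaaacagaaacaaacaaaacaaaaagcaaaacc
Ing3 upstream, chr6:21916878-21917177: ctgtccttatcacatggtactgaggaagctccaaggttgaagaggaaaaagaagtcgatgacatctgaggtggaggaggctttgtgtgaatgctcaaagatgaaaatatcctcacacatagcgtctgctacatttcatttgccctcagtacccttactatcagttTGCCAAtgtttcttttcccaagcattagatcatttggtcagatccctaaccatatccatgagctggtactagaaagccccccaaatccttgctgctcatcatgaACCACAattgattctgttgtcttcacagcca
Arid1a intron, chr4:133751495-133751794: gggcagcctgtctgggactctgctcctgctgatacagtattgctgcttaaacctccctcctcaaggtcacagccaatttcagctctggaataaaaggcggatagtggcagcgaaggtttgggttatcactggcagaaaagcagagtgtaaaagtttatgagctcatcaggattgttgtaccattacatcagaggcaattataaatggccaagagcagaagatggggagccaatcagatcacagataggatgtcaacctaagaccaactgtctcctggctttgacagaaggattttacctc
Actr6 intron, chr10:89731377-89731676: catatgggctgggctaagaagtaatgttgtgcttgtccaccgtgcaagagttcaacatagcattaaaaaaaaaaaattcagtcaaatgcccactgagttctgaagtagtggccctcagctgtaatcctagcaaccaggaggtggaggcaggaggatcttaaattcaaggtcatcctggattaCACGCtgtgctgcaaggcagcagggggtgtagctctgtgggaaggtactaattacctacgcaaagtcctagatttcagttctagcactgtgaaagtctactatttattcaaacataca

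The promoter of Actl6a is shown beside them as an example of a start site rich in CpG, although it holds fewer CpG than the family median given below. Its 300 bases around the TSS, from RefSeq on GRCm38.p6, hold 21 CpG (capitals) at a GC content of 63.7%.
Actl6a promoter, chr3:32708296-32708595: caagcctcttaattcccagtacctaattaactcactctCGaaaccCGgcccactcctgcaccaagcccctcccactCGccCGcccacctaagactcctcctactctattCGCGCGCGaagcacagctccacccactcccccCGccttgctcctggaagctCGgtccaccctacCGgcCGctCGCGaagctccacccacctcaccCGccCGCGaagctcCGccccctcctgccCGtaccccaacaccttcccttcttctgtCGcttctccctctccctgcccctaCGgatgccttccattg
Across the 40 RefSeq promoters found for 34 of the genes the median was 29 CpG, against 7 over all 32851 promoters. In the central 500 bases of the 49 tested TSS windows of the family at 24 h the median was 41 CpG, against 27 over all 16680 tested windows with a TSS. GCGTG, whose letters hold a CpG, was found in 65.3% of those 49 windows, in 56.1% of all windows with a TSS and in 23.3% of all tested windows. TGTGGT was found in 8.16%, 22.3% and 39.2% of the same sets, and TGANTCA in 4.08% (2 of 49), in 1676 of the 16680 windows with a TSS and in 27.1%. The 4 h windows did not repeat all of this. There GCGTG was found in 54.7% of the 53 TSS windows of the family, against 56.5% of all tested windows with a TSS. For TGTGGT these shares were 13.2% and 22.6%, and for TGANTCA 13.2% and 11.9%.

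The start sites differed widely in how open they were before any treatment. In control MSCs at 24 h, the TSS window of Actl6a had the highest level of the family, 1504 ± 70.0 normalised counts per kb (SD, n = 3). It was followed by Ep400, an ATPase of the TIP60 complex (842 ± 23.1), Actr8, an actin-related subunit of INO80 (839 ± 49.96), and Smarca2, the BAF ATPase also called BRM (817 ± 83.0), whose levels lie within their spread of each other. The lowest was Actl6b at 36.6 ± 20.2, the neuronal counterpart of Actl6a, and next came Dpf2 (60.1 ± 11.8) and Arid1a (61.5 ± 11.8), which also overlap in their spread. At 4 h Ing3, a TIP60 subunit that reads histone methylation, stood highest in both cell types, at 2848 ± 47.0 in MSCs and 3025 ± 216 in NIH3T3 cells, and Actl6b again lowest (40.3 ± 3.55 and 24.0 ± 9.63).

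No TSS window of these genes was called after CK666 at 24 h. A called window had an adjusted p under 0.01 and a change, up or down, of more than 1 on the log2 scale, and "rose" and "fell" below refer to an adjusted p under 0.05. The p-values are from the quasi-likelihood test of edgeR, adjusted by Benjamini-Hochberg over all tested windows. Of the 49 TSS windows 0 were called by edgeR and 0 by DESeq2, with 7 at an unadjusted p under 0.05 (background over all TSS windows 0.773% called). At an adjusted p under 0.05, 1 passed (2.04%, background 8.47%). This was the start of Smarcb1, the core BAF subunit known as SNF5. Its normalised counts were 264.9, 260.8 and 261.0 in the controls, 469.1, 402.0 and 492.4 with CK666 and 271.0, 238.0 and 214.0 with CytoD. All 3 CK666 libraries lay above every other library, and control and CytoD libraries overlapped. The rise was 0.79 ± 0.11 on the log2 scale (SE, adjusted p = 9.26e-09), and it passed in all 17 alternatives, from 0.71 to 0.86. At 4 h the Smarcb1 start changed by 0.12 in each cell type (adjusted p = 0.473 in MSCs and 0.606 in NIH3T3 cells).

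The start of Actl6a itself did not pass in any treatment. At 24 h it had 1296, 1286 and 1398 normalised counts in the controls, 1477, 1282 and 1484 with CK666 and 1311, 1337 and 1149 with CytoD, so that the 3 groups overlap. The log2 change was 0.09 ± 0.07 with CK666 (adjusted p = 0.512) and -0.07 ± 0.07 with CytoD (adjusted p = 0.605). At 4 h the window, which was drawn wider, had 2713, 2516 and 2663 in control MSCs and 2504, 2331 and 2308 with CK666, all 3 below the controls (-0.14 ± 0.05, adjusted p = 0.0596). In NIH3T3 cells it had 2358, 1923 and 2218 in the controls and 1900, 2091 and 1811 with CK666, with overlap (-0.16 ± 0.12, adjusted p = 0.396).

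The starts of Arid1a and Ruvbl1 likewise did not pass in any treatment. The start of Arid1a, the defining subunit of canonical BAF, had 133.8, 185.0 and 135.8 in the controls, 140.5, 154.9 and 184.8 with CK666 and 197.2, 154.2 and 161.8 with CytoD. These ranges overlap, and the changes were 0.07 ± 0.14 (adjusted p = 0.856) and 0.16 ± 0.15 (adjusted p = 0.558). The start of Ruvbl1, an AAA+ ATPase shared by INO80, SRCAP and TIP60, had 193.5, 216.5 and 274.4 in the controls, 273.4, 281.9 and 304.7 with CK666 and 245.6, 223.5 and 253.3 with CytoD. Only 1 CK666 library lay below the highest control, and the change of 0.32 ± 0.12 had an adjusted p of 0.0736. At 4 h the best covered Arid1a start, a different window, had 157.2, 136.8 and 100.7 against 176.0, 145.9 and 158.9 in MSCs and 113.4, 157.7 and 116.9 against 164.6, 191.2 and 153.9 in NIH3T3 cells. The groups overlap in both cell types (0.28 ± 0.15, adjusted p = 0.287, and 0.39 ± 0.16, adjusted p = 0.103). Ruvbl1 at 4 h had 521.7, 491.4 and 421.2 against 480.4, 498.6 and 482.5 in MSCs, and 339.3, 284.2 and 309.2 against 247.7, 291.0 and 241.8 in NIH3T3 cells (adjusted p = 0.908 and 0.232).

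The ATPase genes gave small changes at their starts. Ino80, the catalytic subunit of its complex, had 274.0, 294.1 and 250.2 in the controls, 306.2, 275.8 and 297.8 with CK666 and 216.3, 276.9 and 242.3 with CytoD, with overlap in both comparisons (adjusted p = 0.666 and 0.456). At 4 h it had 505.7, 505.0 and 473.7 against 582.8, 568.5 and 509.3 in MSCs and 410.2, 385.3 and 400.9 against 427.1, 436.5 and 433.8 in NIH3T3 cells. Every CK666 library lay above its controls, but neither change passed (0.16 ± 0.08, adjusted p = 0.252, and 0.12 ± 0.13, adjusted p = 0.598). Ep400 had 945.5, 903.5 and 950.0 in the controls, 1104, 979.7 and 1161 with CK666 and 902.2, 972.7 and 881.4 with CytoD. The CK666 libraries were the 3 highest, and the change of 0.21 ± 0.07 had an adjusted p of 0.0571. Smarca4, the BAF ATPase also called BRG1, had 154.5, 178.1 and 175.2 in the controls, 209.7, 156.6 and 244.7 with CK666 and 152.7, 140.9 and 124.4 with CytoD. The CytoD libraries were the 3 lowest, yet neither change from control passed (adjusted p = 0.29 and 0.216).

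With CytoD most of the start sites that passed fell, by 0.57 or less on the log2 scale. Of the 49 TSS windows 0 were called by edgeR or DESeq2 (13 at an unadjusted p under 0.05, background 0.444% called), but 10 passed an adjusted p of 0.05 (20.4%, background 10.8%). Of these 9 fell and 1 rose, and 40 of the 49 lay below 0. The directions over all TSS windows were not counted, but their median also lay below 0, as given below. With libraries scaled by total counts 5 passed, of which 4 fell, and 34 of 49 lay below 0. The median log2 change of the family's TSS windows was -0.137, beside -0.0724 over all TSS windows, and with total counts these were -0.0620 and 0.00524.

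Actr8 gave the clearest fall. Its start had 654.6, 732.2 and 671.2 in the controls, 682.6, 655.2 and 670.2 with CK666 and 478.5, 488.2 and 504.7 with CytoD, so that the CytoD libraries stood apart from both other groups (-0.48 ± 0.09, adjusted p = 1.29e-05). Dpf3, a canonical BAF subunit that reads acetylated histones, had 368.8, 367.4 and 367.3 in the controls and 263.4, 304.8 and 246.9 with CytoD, without overlap (-0.44 ± 0.11, adjusted p = 0.00248). Pbrm1, the bromodomain subunit that defines PBAF, had 210.4, 165.4 and 167.1 in the controls and 104.3, 122.7 and 133.5 with CytoD. The groups were apart here too (-0.57 ± 0.15, adjusted p = 0.00502), but the window also contains the start of the neighbouring gene Gnl3. At the main start of Smarca2 the counts were 1474, 1764 and 1772 in the controls and 1270, 1383 and 1445 with CytoD, again without overlap (-0.29 ± 0.07, adjusted p = 0.00176). These 4 starts passed in all 17 alternatives.

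The remaining CytoD changes at start sites did not pass in every fit with a library left out. Brd9, the subunit that defines non-canonical BAF, fell by 0.33 on the log2 scale (adjusted p = 0.0318), which became -0.20 (adjusted p = 0.343) without control replicate 3 and was also lost without any 1 of the CytoD libraries (adjusted p = 0.0806, 0.0552 and 0.0766). Smarcd1, a core BAF subunit, fell by 0.42 (adjusted p = 0.0402) and was lost without control replicate 2 or 3 or CytoD replicate 2 or 3 (adjusted p = 0.0541, 0.148, 0.0762 and 0.129). Brd8, a bromodomain subunit of TIP60, fell by 0.35 (adjusted p = 0.0483) and was lost without control replicate 1 or 2 or CytoD replicate 1 or 3 (adjusted p = 0.0775, 0.0981, 0.0961 and 0.163). Yeats4, a histone reader shared by SRCAP and TIP60, fell by 0.24 (adjusted p = 0.0466) and was lost without control replicate 2 or 3 or any 1 of the CytoD libraries (adjusted p from 0.0573 to 0.13). Another start of Smarca2 fell by 0.32 (adjusted p = 0.0213) and was lost without control replicate 2 (adjusted p = 0.104) or CytoD replicate 1 (adjusted p = 0.126). The only rise, at a little used start of Smarca2 (1.94, adjusted p = 0.049), was lost without any 1 of the 9 libraries but control replicate 1 (1.29 to 2.06, adjusted p from 0.054 to 0.269), without which it was called (3.23). With total counts the falls at Brd9, Smarcd1, Brd8, Yeats4 and the other Smarca2 start did not pass. The starts of Brd9 and Brd8 are shared with Trip13 and Kif20a.

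Set directly against CytoD, CK666 gave higher counts at 9 of the 49 TSS windows (18.4%, background 16.7%) and lower counts at none, and 0 were called by edgeR or DESeq2 (18 at an unadjusted p under 0.05, background 0.689% called). The median log2 difference over all TSS windows also lay above 0 (0.0928, beside 0.144 for those of the family), and their directions were not counted. The largest difference was at Smarcb1 (0.92 ± 0.11, adjusted p = 1.38e-10), followed by Dpf2, a histone reader of canonical BAF (0.68 ± 0.16, adjusted p = 0.00192), and Smarca4 (0.55 ± 0.14, adjusted p = 0.00437). The Dpf2 counts were 152.6, 141.8 and 190.7 with CK666 and 86.53, 127.5 and 89.61 with CytoD. Neither Dpf2 nor Smarca4 passed against the controls (for Dpf2, adjusted p = 0.301 with CK666 and 0.136 with CytoD). Actr8 (0.45), Dpf3 (0.44), Smarca2 (0.37), Brd9 (0.32), Ino80d (0.28) and Ep400 (0.24) completed the list. Smarcb1, Actr8 and Smarca2 passed in all 17 alternatives. Dpf3 was lost without CK666 replicate 1 (adjusted p = 0.0845), Dpf2 without CK666 replicate 3 (adjusted p = 0.0519) and Smarca4 without CK666 replicate 3 (adjusted p = 0.122) or CytoD replicate 3 (adjusted p = 0.0588). Ino80d was lost without any 1 of the 6 treated libraries (adjusted p from 0.0656 to 0.116), Brd9 without any of these but CK666 replicate 2 (0.0618 to 0.303), and Ep400 without CK666 replicate 1 or 3 or CytoD replicate 1 or 3 (adjusted p from 0.098 to 0.221).

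After 4 h of CK666 no start site was called in either cell type. In MSCs edgeR and DESeq2 called 0 of 52 (12 at an unadjusted p under 0.05, background 0.263% called), and 3 passed an adjusted p of 0.05 (5.77%, background 10.2%). Ep400 had 2057, 2037 and 1795 in the controls and 1783, 1647 and 1683 with CK666, just below the controls (-0.20 ± 0.05, adjusted p = 0.00909), and was lost without control replicate 1 (-0.17, adjusted p = 0.123), control replicate 2 (adjusted p = 0.0906) or CK666 replicate 2 (adjusted p = 0.115), and with GC offsets (-0.15, adjusted p = 0.066). A start of Smarcc1, a scaffold of the BAF core, fell by 0.24 (adjusted p = 0.0299) and was lost without control replicate 2 or 3 or CK666 replicate 2 or 3 (adjusted p from 0.0558 to 0.193), and with GC offsets (-0.19, adjusted p = 0.115). Dpf2 had 218.1, 276.7 and 181.1 in the controls and 278.5, 291.8 and 293.9 with CK666. Its rise of 0.35 (adjusted p = 0.0396) was lost without any library but control replicate 2 (adjusted p from 0.0677 to 0.346), and with DESeq2.

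In NIH3T3 cells edgeR and DESeq2 called 0 of 53 start sites (19 at an unadjusted p under 0.05, background 1.50% called), and 9 passed an adjusted p of 0.05 (17.0%, background 16.1%), 3 higher and 6 lower. With total counts 13 passed, 7 higher and 6 lower, a scaling that raised the median of all windows by 0.11. Dpf3 fell most, from 698.8, 584.9 and 647.2 in the controls to 450.8, 436.5 and 438.6 with CK666, without overlap (-0.54 ± 0.13, adjusted p = 0.0014), and passed in all 14 alternatives. Actr5, an actin-related subunit of INO80, had 809.2, 719.6 and 790.2 against 508.7, 616.3 and 496.9, also apart (-0.51 ± 0.12, adjusted p = 0.00244). Without CK666 replicate 3 its adjusted p was 0.0646. The start of Arid2, the PBAF counterpart of Arid1a, had 366.6, 322.8 and 318.2 against 232.8, 250.5 and 220.7 (-0.52 ± 0.14, adjusted p = 0.00611), and was lost without control replicate 1 (adjusted p = 0.0774) or CK666 replicate 3 (adjusted p = 0.0724).

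Kat5, the acetyltransferase of TIP60, rose in NIH3T3 cells, from 202.6, 175.8 and 169.0 to 284.7, 295.2 and 247.5, with all CK666 libraries above the controls (0.60 ± 0.14, adjusted p = 0.00221). Without control replicate 3 its adjusted p was 0.0672. Trrap, the scaffold that links TIP60 to transcription factors, had 369.7, 347.5 and 413.5 against 266.9, 274.4 and 271.4 (-0.475 ± 0.13, adjusted p = 0.0102), lost without control replicate 3 (adjusted p = 0.125) or CK666 replicate 3 (adjusted p = 0.0643). Ss18, a BAF subunit bound to the ATPase, fell by 0.42 (adjusted p = 0.0201) and was lost without the same 2 libraries (adjusted p = 0.15 and 0.122). Smarcc1 (-0.37, shared with Dhx30), Dpf2 (0.47) and Smarca4 (0.44) passed with adjusted p from 0.0246 to 0.0313, and were unstable. Smarcc1 was lost without control replicate 1 or 3 or CK666 replicate 1 or 3 (adjusted p from 0.0904 to 0.176), Dpf2 without any library but CK666 replicate 1 (0.052 to 0.173), and Smarca4 without control replicate 2 or 3 or CK666 replicate 1 or 2 (0.0901 to 0.221). Dpf2 and Smarca4 did not pass with DESeq2. Smarca4 had 264.3, 184.8 and 205.9 against 335.2, 306.6 and 250.4, with overlap. In MSCs at 4 h Smarca4 had 321.8, 345.1 and 292.6 against 401.8, 372.2 and 365.7 (0.25 ± 0.10, adjusted p = 0.105).

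The 2 cell types differed in the response of 3 start sites (5.66%, background 6.54%), by the interaction of cell type and CK666, and 0 were called by edgeR or DESeq2 (9 at an unadjusted p under 0.05, background 0.787% called). For Dpf3 the MSC change minus the NIH3T3 change was 0.65 ± 0.15 (adjusted p = 0.00225), and it passed in all 20 alternatives. Its MSC counts overlapped, with 959.0, 838.6 and 816.7 in the controls and 924.9, 900.9 and 945.8 with CK666, while it fell in NIH3T3 cells (-0.54). Actr5 (0.51, adjusted p = 0.0243) and Actr8 (0.48, adjusted p = 0.0335) differed in the same direction, but were kept in only 6 and 3 of the 12 fits with a library left out. Actr5 was lost without MSC control replicate 1 or 2, MSC CK666 replicate 1, NIH3T3 control replicate 1 or 3 or NIH3T3 CK666 replicate 3 (adjusted p from 0.0568 to 0.135), and Actr8 without any library but NIH3T3 control replicate 2 and NIH3T3 CK666 replicate 1 and 2 (0.0505 to 0.122).

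**Figure D1:**
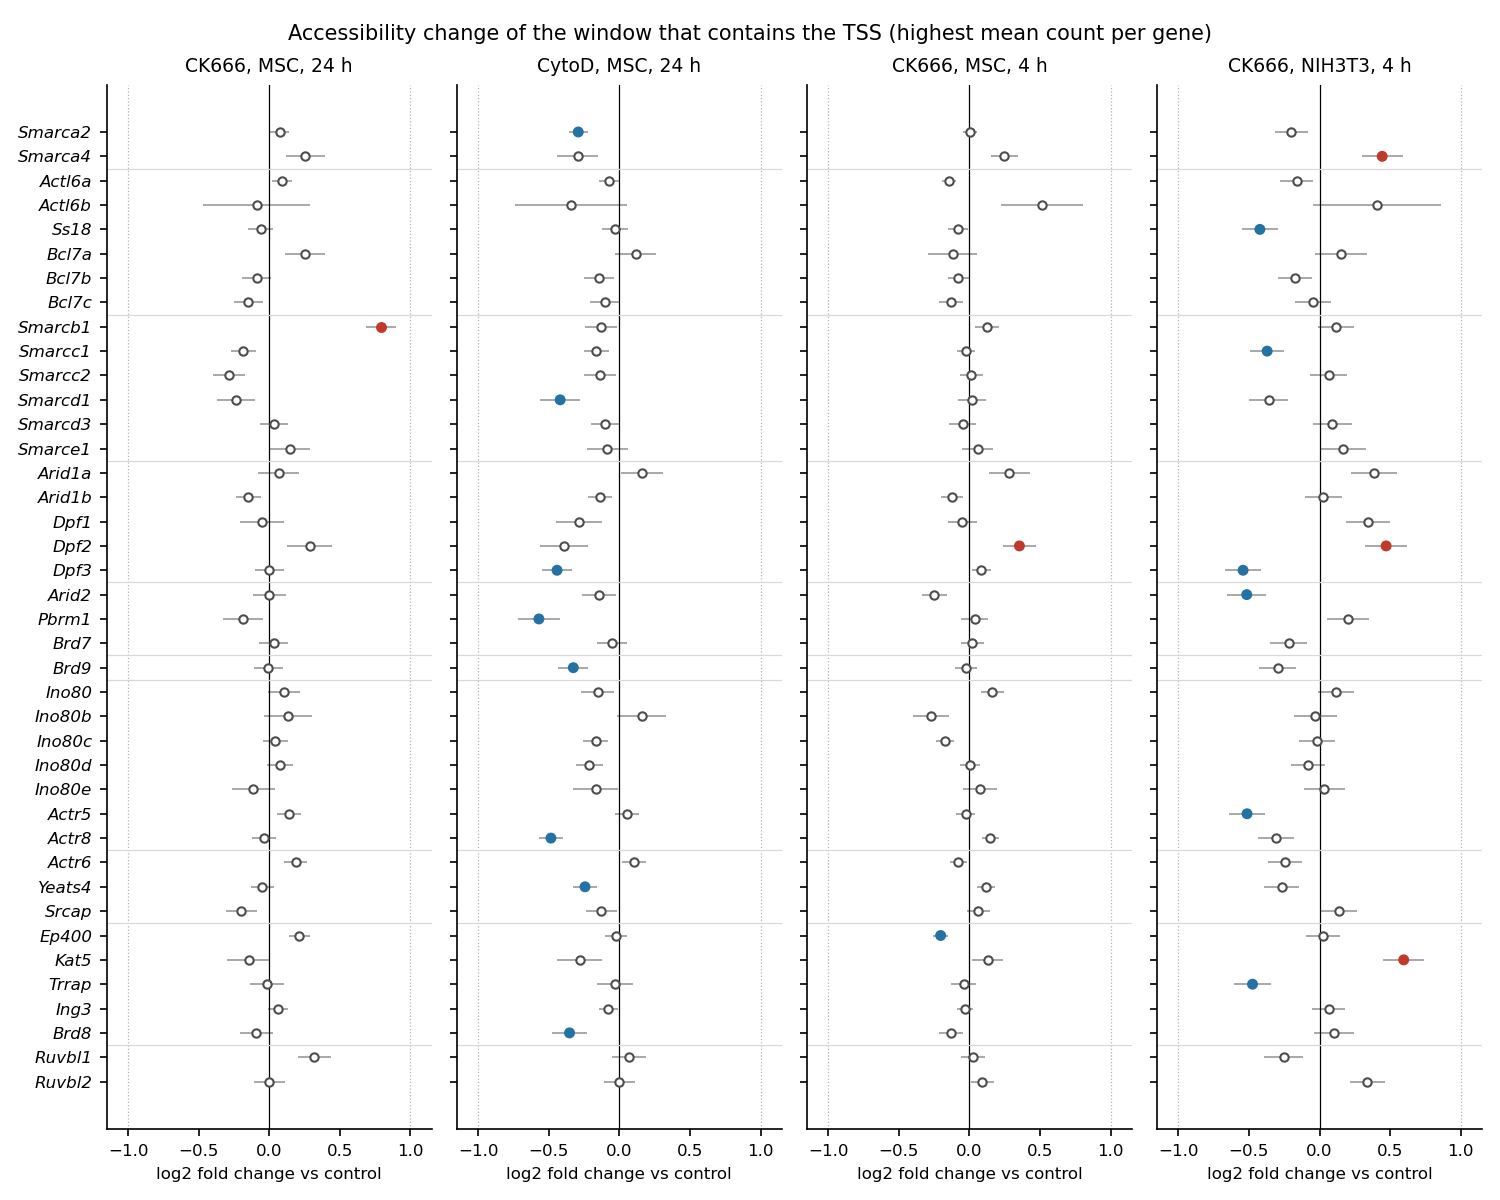
Log2 fold change against control (x axis) of the TSS window with the highest mean count of each gene (rows, grouped by complex) in the 4 treatment comparisons. Circles are estimates from 3 libraries a group, bars are 1 SE, filled circles have an adjusted p under 0.05 (red higher, blue lower) and dotted lines mark a change of 1. No circle passes 1 in either direction, Smarcb1 stands at 0.79 after CK666 at 24 h, and the filled circles of the CytoD panel all lie below 0.

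Away from the start sites the family had called windows in every comparison. The shares that follow count TSS windows too, and lay below the share over all tested windows each time. TSS windows were seldom called under treatment and made up more of the family (49 of 455 at 24 h) than of all windows (16680 of 300323). With them left out the family's share was still the lower one each time, but the gap nearly closed for CytoD and for the interaction (1.37%, background 1.43%). It remained for CK666 at 24 h (2.22%, background 3.07%). After CK666 at 24 h 9 of 455 windows were called (1.98%, background 2.94%), of which 6 rose (background for higher 1.88%) and 3 fell (background for lower 1.06%). After CytoD 10 were called (2.20%, background 2.38%), 6 higher (background 0.980%) and 4 lower (background 1.40%). In CK666 against CytoD 11 were called (2.42%, background 3.28%), 8 higher (background 2.14%) and 3 lower (background 1.14%). At 4 h 2 of 430 were called in MSCs (0.465%, background 1.02%), both higher (background 0.590%) and none lower by edgeR or DESeq2 (31 lower at an unadjusted p under 0.05, background 0.427%). In NIH3T3 cells 12 of 441 were called (2.72%, background 3.54%), 6 higher (background 1.87%) and 6 lower (background 1.67%). The interaction, taken as the MSC change minus the NIH3T3 change, gave 6 of 492 (1.22%, background 1.40%). Of these 2 were positive (background 0.905%) and 4 negative (background 0.498%). At each of them the change in NIH3T3 cells was further from 0 than that in MSCs. In the 4 comparisons with controls every called window had groups that did not overlap. The median log2 change of the family's windows lay between -0.0564 and 0.0634 in these comparisons, beside -0.0466 to 0.0418 for the median of all tested windows. The signs were opposite for CytoD (-0.0564, and 0.0418 over all windows) and for CK666 against CytoD (0.0555 and -0.0254). With total counts they were alike (0.0215 and 0.119 for CytoD, -0.0209 and -0.102 for CK666 against CytoD).

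The share of the calls that were higher moved with the scaling. It was 66.7% for CK666 at 24 h, and 55.6% with RLE size factors or GC offsets and 57.1% with DESeq2. For CytoD it was 60.0%, and 87.5% with total counts, and for CK666 against CytoD 72.7%, and 87.5% with DESeq2. In NIH3T3 cells 6 of 12 were higher, against 70.0% with total counts and 40.0% with DESeq2 or GC offsets. In the interaction the share of positive differences was 33.3%, and 16.7% with total counts, which moved the median of all windows by -0.105.

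**Figure D2:**
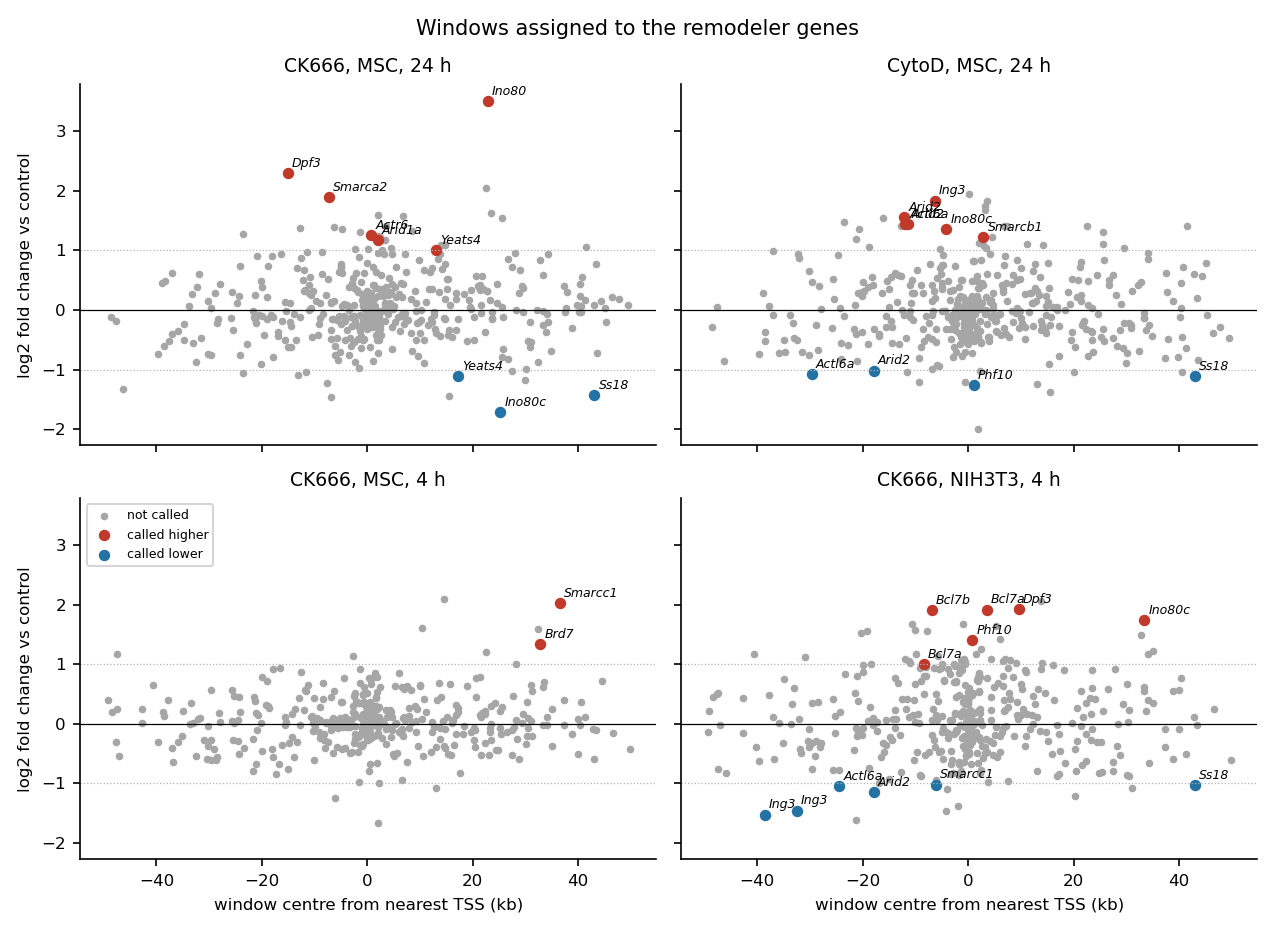
Log2 fold change against control (y axis) of each tested window by the distance of its centre from the nearest TSS in kb (x axis, negative upstream), in the 4 treatment comparisons. Grey points were not called, red were called higher and blue lower, with their gene, and dotted lines mark a change of 1. No called window contains a TSS, and the called changes run down to -1.71 (Ino80c) and up to 3.51 (Ino80), both after CK666 at 24 h.

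The CK666 calls at 24 h that were kept with each library left out were those near Actr6, Ss18, Dpf3 and Ino80. Actr6, an actin-related subunit of SRCAP, has a window in its gene 769 bases after the start (chr10:89731263-89731790, intron) with 85.72, 86.94 and 81.32 normalised counts in the controls, 230.3, 174.0 and 202.4 with CK666 and 80.17, 127.5 and 93.26 with CytoD. The CK666 libraries stood above all others, and the rise was 1.25 ± 0.16 (adjusted p = 2.51e-09). The change with CytoD was 0.24 (adjusted p = 0.432), and the difference between the inhibitors of 1.01 (adjusted p = 8.2e-07) was no longer called without CK666 replicate 1 (0.91) or CytoD replicate 1 (0.90) or 3 (0.96). An intergenic window 43098 bases after the start of Ss18 had 96.11, 122.7 and 141.2 in the controls, 32.77, 45.24 and 57 with CK666 and 85.26, 27.93 and 55.78 with CytoD. Both treated groups lay below the controls (-1.43 ± 0.23, adjusted p = 1.08e-06, and -1.11 ± 0.23, adjusted p = 1.98e-04), the CytoD call being lost without control replicate 3 (-0.998) or CytoD replicate 2 (-0.83).

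The windows near Ino80 and Dpf3 were almost closed in the controls. The one in an intron of Ino80, 22830 bases after its start (chr2:119454530-119455036), had 0, 6.819 and 1.787 in the controls, 31.84, 37.41 and 43.24 with CK666 and 0, 1.214 and 3.657 with CytoD. It was open in the CK666 libraries alone, and since the other counts are near 0 the fitted change of 3.51 depends on the prior count. An intron window of Dpf3 (chr12:83454615-83455345) rose by 2.30 (adjusted p = 1.19e-04), from at most 12.99 in the controls to at least 33.93 with CK666. No window of the 4 h experiment lay over the Ino80 site.

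Arid1a, whose start did not pass, has an intron window 1967 bases after it (chr4:133751247-133752042) with 31.17, 39.21 and 41.11 in the controls, 83.34, 69.61 and 101.2 with CK666 and 36.9, 41.29 and 47.55 with CytoD. The CK666 libraries stood above all others, and the rise was 1.17 ± 0.24 (adjusted p = 1.50e-04). Without CK666 replicate 3 it was 0.996 (adjusted p = 0.00936) and no longer beyond 1. Yeats4 had a pair of called windows. The one 17264 bases after its start had 80.52, 94.61 and 98.3 in the controls, 51.5, 43.5 and 31.45 with CK666 and 55.99, 57.08 and 48.46 with CytoD, with both treated groups below the controls. It fell by 1.11 with CK666 (adjusted p = 1.17e-04), and by 0.97 without CK666 replicate 3. The other, 13135 bases after the start, had 72.73, 114.2 and 77.75 in the controls and 200.4, 149.7 and 188.7 with CK666. Its rise of 1.003 was lost without control or CK666 replicate 1 or 3 (0.88 to 0.94) or any 1 of the CytoD libraries (0.989 to 0.991). An intron window of Smarca2 (1.90, adjusted p = 0.00471) was lost without control replicate 1 or 3 or CK666 replicate 1 or 2 (adjusted p from 0.0209 to 0.0558), and an intergenic window of Ino80c (-1.71, adjusted p = 0.00324) without control replicate 2 or any 1 of the CK666 libraries (adjusted p from 0.0132 to 0.0937).

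CytoD gave its clearest call upstream of Actl6a. The intergenic window 11976 bases before the start (chr3:32693916-32694728, the first sequence above) had 129.9, 126.1 and 103.7 in the controls, 175.1, 210.6 and 183.8 with CK666 and 327.0, 303.6 and 338.3 with CytoD. The 3 groups did not overlap and were ordered control, CK666, CytoD. The rise was 1.44 ± 0.13 with CytoD (adjusted p = 1.33e-14) and 0.67 ± 0.13 with CK666 (adjusted p = 1.16e-04), and the inhibitors differed by -0.77 (CK666 minus CytoD, adjusted p = 1.15e-06). At 4 h a wider window over the same site had 137.9, 134.7 and 145.8 in control MSCs and 213.8, 214.0 and 181.9 with CK666, a rise of 0.54 (adjusted p = 0.00315), while NIH3T3 cells, with 45.58, 61.61 and 26.07 against 56.35, 61.32 and 60.2, overlapped (0.41, adjusted p = 0.296). Further out, 29694 bases before the start, a window had 48.05, 98.87 and 81.32 in the controls, 43.07, 53.07 and 40.29 with CK666 and 31.81, 41.29 and 36.57 with CytoD. It fell by 1.08 with CytoD (adjusted p = 0.00148), a call lost without control replicate 2 (-0.87, adjusted p = 0.0518) or CytoD replicate 1 (-1.02, adjusted p = 0.0106).

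Arid2 held 3 of the CytoD calls, all upstream of its start and in both directions. The window 11413 bases before it had 40.26, 54.55 and 63.45 in the controls, 103.9, 105.3 and 106.1 with CK666 and 154.0, 154.2 and 130.8 with CytoD, with the groups apart in that order. It rose by 1.44 ± 0.18 with CytoD (adjusted p = 4.56e-09) and by 0.97 ± 0.19 with CK666 (adjusted p = 6.74e-05). Next to it, 12086 bases before the start, the counts were 20.78, 23.87 and 15.19 in the controls, 13.11, 30.45 and 31.45 with CK666 and 40.72, 80.15 and 56.69 with CytoD. Only CytoD stood apart there (1.56, adjusted p = 2.20e-04, and adjusted p = 0.016 without CytoD replicate 2). At 17915 bases before the start (chr15:96269334-96269872, the Arid2 sequence above) the order turned, with 133.8, 162.8 and 139.4 in the controls, 86.15, 81.79 and 85.5 with CK666 and 57.26, 68.01 and 87.78 with CytoD. Both treated groups lay below the controls (-0.79, adjusted p = 4.95e-04, and -1.02, adjusted p = 1.37e-05). The CytoD change was under 1 without control replicate 2 (-0.95) or CytoD replicate 1 (-0.91).

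The other CytoD calls were near Ino80c, Phf10, Ing3, Ss18 (above) and Smarcb1. A window 4202 bases before the start of Ino80c, a small INO80 subunit, had 33.77, 27.28 and 32.17 in the controls, 21.54, 33.06 and 26.53 with CK666 and 80.17, 80.15 and 77.72 with CytoD. Only the CytoD libraries were high (1.36 ± 0.26, adjusted p = 6.73e-05), and the call was kept with each library left out. Phf10, a PBAF subunit, has a single window, in an intron 1101 bases after its start (chr17:14959914-14960431), with 41.56, 37.5 and 28.6 in the controls, 58.06, 69.61 and 48.15 with CK666 and 10.18, 8.501 and 23.77 with CytoD. CytoD libraries were the lowest and CK666 libraries the highest. The fall with CytoD (-1.26 ± 0.34, adjusted p = 0.00834) was lost without control replicate 1 or 2 or CytoD replicate 1 or 2 (adjusted p from 0.0268 to 0.0698), whereas the difference between the inhibitors (1.98 ± 0.33, adjusted p = 2.37e-06) was kept with each library left out. Ing3 at 6330 bases before its start (1.83, adjusted p = 0.00102) was lost without control replicate 3 (adjusted p = 0.0134). In an intron of Smarcb1 the counts were 19.48, 23.87 and 12.51 in the controls and 39.45, 47.36 and 43.89 with CytoD, without overlap, but the call (1.22, adjusted p = 0.00762) was lost without any 1 of the 9 libraries but CK666 replicate 2 (adjusted p from 0.0103 to 0.0969).

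Beside the windows given so far, the direct comparison of the inhibitors called windows near Smarcc1, Yeats4, Ss18, Ino80c and Ep400. An intron window of Smarcc1 had 79.22, 63.93 and 67.03 in the controls, 143.3, 116.6 and 150.4 with CK666 and 54.72, 60.72 and 52.12 with CytoD. CK666 stood above and CytoD below the controls, and the difference was 1.29 ± 0.19 (adjusted p = 1.73e-07). A window 13836 bases after the start of Yeats4 had 80.52, 116.8 and 80.43 in the controls, 176.0, 167.1 and 192.6 with CK666 and 77.62, 60.72 and 83.21 with CytoD (1.26 ± 0.17, adjusted p = 1.63e-08). One 37413 bases after the start of Ss18 had 59.74, 80.97 and 77.75, then 91.77, 90.49 and 111.1, then 31.81, 47.36 and 46.63, so that the inhibitors lay on either side of the controls (1.20 ± 0.22, adjusted p = 1.90e-05). A window 5096 bases before the start of Ino80c had 14.05, 26.1 and 12.78 with CK666 and 36.9, 60.72 and 35.66 with CytoD (-1.31, adjusted p = 0.00372), lost without CK666 replicate 1 or 3 or CytoD replicate 2 (adjusted p from 0.037 to 0.0827). The windows near Ino80c at 4202 bases (-1.54, adjusted p = 4.46e-06) and Ino80 (4.28, near 0 with CytoD) were kept throughout, Dpf3 (1.95) was lost without CytoD replicate 3 (adjusted p = 0.0196), Arid2 at 12086 bases (-1.24) without CK666 replicate 1 or CytoD replicate 2 or 3 (adjusted p from 0.0116 to 0.0748), and an intron window of Ep400 (2.12) without CK666 replicate 1 or 3 or CytoD replicate 1 or 2 (adjusted p from 0.0198 to 0.107).

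**Figure D3:**
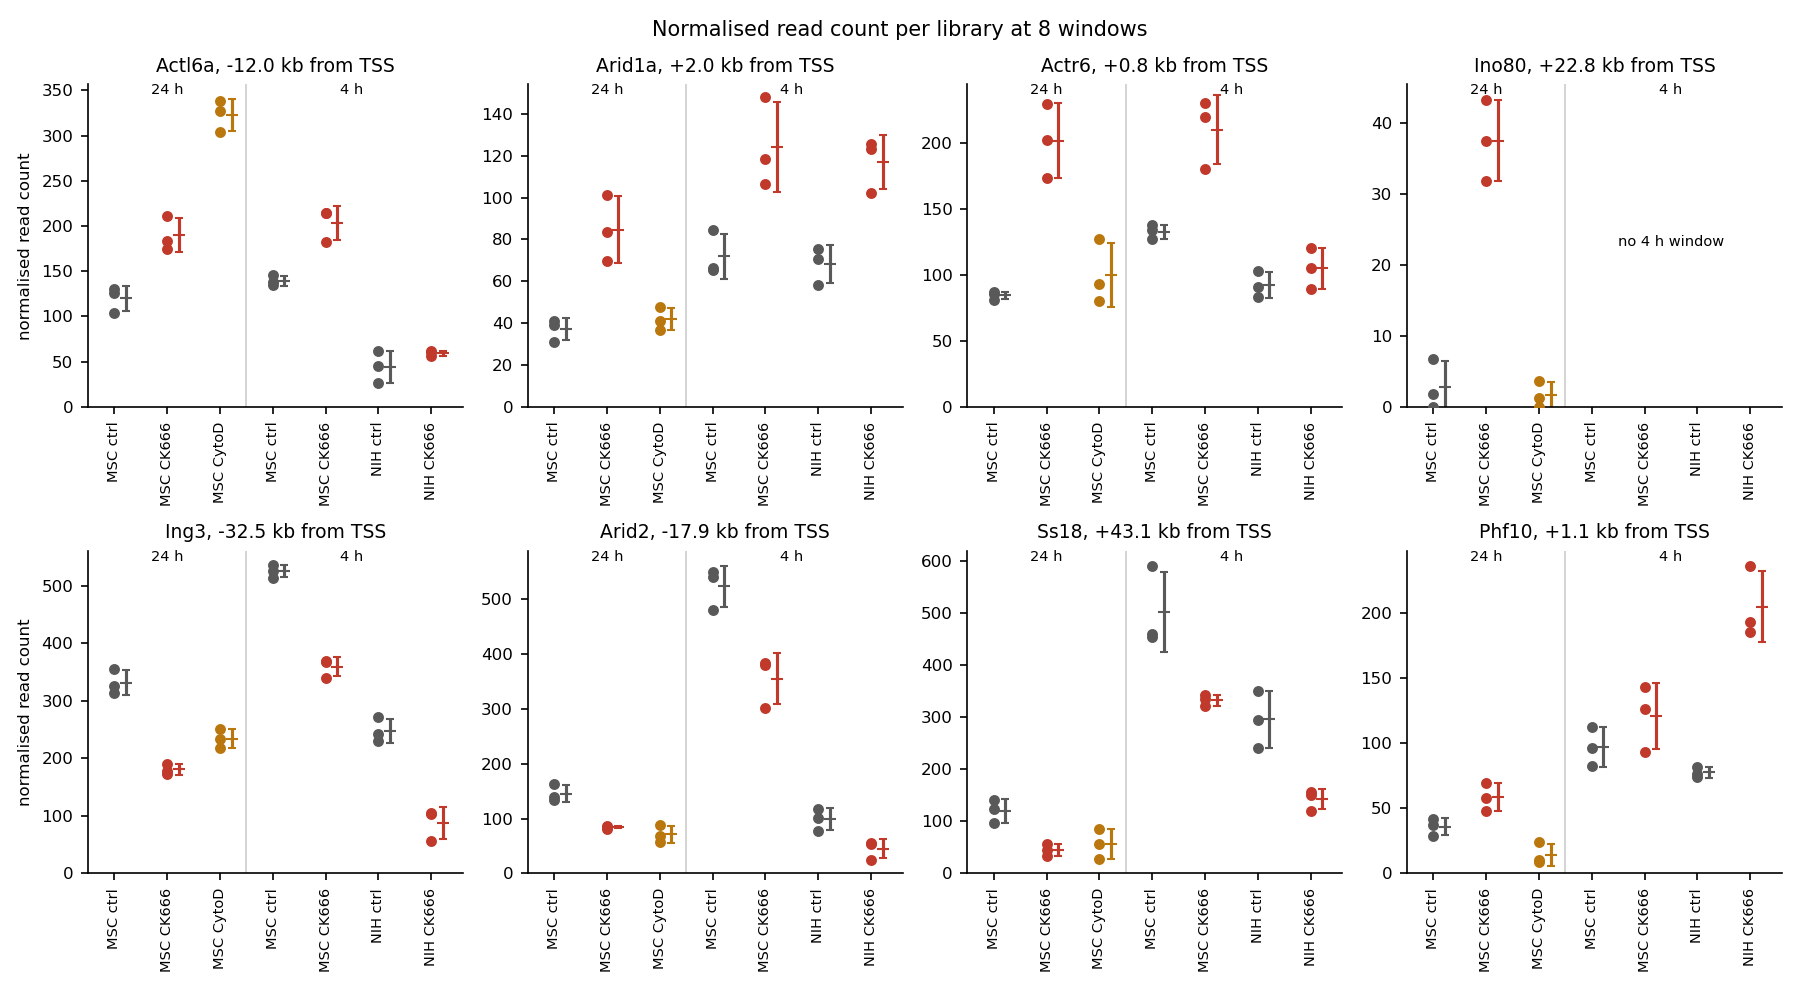
Normalised read count per library (y axis) at 8 windows, by group and time (x axis). Points are the 3 libraries of a group, horizontal bars with whiskers are mean ± SD, and the 24 h and 4 h experiments and the 2 cell types at 4 h were normalised separately. The Actl6a window is ordered control, CK666, CytoD at 24 h, and the Ing3, Arid2 and Ss18 windows are lower with CK666 than with control at each time and in each cell type.

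At 4 h in MSCs the 2 calls were near Brd7 and Smarcc1. Brd7, a PBAF bromodomain subunit, has the nearest start to a window 32875 bases away that lies in a UTR of the gene Adcy7 (chr8:88329062-88329577). It had 71.63, 67.34 and 64.31 in the controls and 173.0, 181.2 and 157.0 with CK666, far apart (1.33 ± 0.16, adjusted p = 1.18e-09), and was kept with each library left out. In NIH3T3 cells, where it was nearly closed, it had 5.064, 6.572 and 4.495 against 17.8, 13.51 and 15.29 (1.49 ± 0.59, adjusted p = 0.0808). An intron window of Smarcc1 (2.02, adjusted p = 0.00377) went from at most 6.415 to at least 18.19, and was lost without control replicate 2 or 3 or CK666 replicate 1 or 2 (adjusted p from 0.0133 to 0.0434).

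NIH3T3 cells gave 12 calls, 6 of which were kept with each library left out. Upstream of Ing3 a pair of intergenic windows fell. The window 32543 bases before the start (chr6:21916481-21917575, the Ing3 sequence above) had 271.4, 230.8 and 241.8 in the controls and 56.35, 102.9 and 104.2 with CK666 (-1.46 ± 0.17, adjusted p = 6.07e-10). In MSCs it had 514.2, 526.1 and 535.9 against 369.0, 367.8 and 339.8, also apart (-0.55 ± 0.09, adjusted p = 1.14e-06). The fall in NIH3T3 cells was larger by 0.93 (adjusted p = 0.00101). The window 38583 bases before the start had 236.0, 187.3 and 213.0 against 57.84, 82.11 and 77.4 in NIH3T3 cells (-1.52 ± 0.17, adjusted p = 2.81e-10), while MSCs had 64.15, 94.69 and 76.1 against 112.4, 69.84 and 76.58, with overlap (0.13, adjusted p = 0.784). A window 33443 bases after the start of Ino80c opened in NIH3T3 cells, from 106.3, 110.9 and 126.7 to 357.4, 428.2 and 358.4 (1.73 ± 0.15, adjusted p = 1.43e-14). MSCs, with 564.5, 588.2 and 531.6 against 544.0, 538.4 and 571.5, were high in both groups (-0.03, adjusted p = 0.903).

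The window of Phf10, drawn wider at 4 h (chr17:14959896-14961021), had 82.04, 73.93 and 76.41 in control NIH3T3 cells and 185.4, 235.9 and 193.0 with CK666 (1.41 ± 0.17, adjusted p = 1.34e-09). In MSCs it had 82.32, 112.6 and 96.46 against 126.3, 143.2 and 92.86, with overlap (0.32, adjusted p = 0.306). Bcl7a and Bcl7b, small BAF subunits, each had a window that was low in control NIH3T3 cells and higher in MSCs. For Bcl7a, 3529 bases after the start (chr5:123347186-123348872), it had 11.14, 16.43 and 12.59 against 86.02, 32.22 and 40.14 in NIH3T3 cells (1.92 ± 0.35, adjusted p = 3.71e-05) and 81.25, 87.33 and 83.6 against 86.52, 72.5 and 78.5 in MSCs. For Bcl7b, in a UTR of Tbl2, it had 10.13, 18.89 and 11.69 against 43.01, 56.13 and 55.43 in NIH3T3 cells (1.91 ± 0.33, adjusted p = 1.19e-05) and 112.3, 145.2 and 102.9 against 161.1, 161.8 and 170.4 in MSCs. CK666 libraries were above the controls in both cell types for Bcl7b (0.45 in MSCs, adjusted p = 0.041), and for Bcl7a in NIH3T3 cells only, the difference between cell types being given below.

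The other 6 calls in NIH3T3 cells were not kept in every fit with a library left out. The Arid2 window 17950 bases before the start had 76.97, 116.6 and 101.6 against 56.35, 24.94 and 54.47 (-1.14 ± 0.23, adjusted p = 1.88e-04, and -0.87 without CK666 replicate 2). That after Ss18 had 294.7, 240.7 and 350.6 against 120.1, 156.9 and 151.0 (-1.03 ± 0.15, adjusted p = 4.96e-07), and was under 1 without control replicate 3 (-0.91) or CK666 replicate 1 (-0.94). A window 24440 bases before the start of Actl6a had 93.18, 64.9 and 80.0 against 43.01, 38.46 and 34.4. CK666 libraries were lower in all of these. The Actl6a call (-1.04, adjusted p = 9.28e-04) was lost without control replicate 1 (-0.94) or CK666 replicate 3 (-0.97), and in MSCs that window had 26.73, 26.3 and 26.79 against 36.8, 18.57 and 28.72 (0.07, adjusted p = 0.945). An intron window of Smarcc1 had 105.3, 92.83 and 113.3 against 40.04, 65.48 and 45.87 (-1.02, adjusted p = 2.71e-04), lost without control replicate 3 (-0.97) or CK666 replicate 1 (-0.90) or 3 (-0.95). A window 8460 bases before the start of Bcl7a had 24.31, 23.82 and 34.16 against 50.42, 64.44 and 49.69 and was called at the limit itself (1.0, adjusted p = 0.00812). It was lost without any library but CK666 replicate 1 (adjusted p from 0.0133 to 0.0692). An intron window of Dpf3 (1.92, adjusted p = 0.00907) was lost without any library but CK666 replicate 2 (adjusted p from 0.0323 to 0.0697).

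The response to CK666 differed between the cell types at 6 windows. At Ino80c (33443 bases after the start) the MSC change minus the NIH3T3 change was -1.73 ± 0.17 (adjusted p = 1.08e-11), and at Ing3 (38583 bases before the start) 1.68 ± 0.27 (adjusted p = 7.35e-06). Both were kept with each of the 12 libraries left out. At Bcl7a it was -1.95 ± 0.39 (adjusted p = 4.15e-04), lost without NIH3T3 CK666 replicate 1 (-1.46, adjusted p = 0.0135). Bcl7b (-1.43, adjusted p = 0.0035), Phf10 (-1.06, adjusted p = 0.00348) and an intron window of Ep400 (1.14, adjusted p = 0.00518) were each kept in 6 of the 12 fits with a library left out. Bcl7b was lost without replicate 2 of either MSC group, NIH3T3 control replicate 1 or 3 or NIH3T3 CK666 replicate 2 or 3 (-1.42 to -1.27, adjusted p from 0.0106 to 0.0244). Phf10 was lost without MSC control replicate 2, MSC CK666 replicate 3, NIH3T3 control replicate 2 or 3 or NIH3T3 CK666 replicate 2 or 3 (-1.07 to -0.88, adjusted p from 0.0106 to 0.0302). Ep400 was lost without MSC control replicate 1 or 3, MSC CK666 replicate 1, NIH3T3 control replicate 2 or NIH3T3 CK666 replicate 2 or 3 (0.98 to 1.13, adjusted p from 0.0161 to 0.038). The Ep400 counts were 220.2, 299.9 and 240.1 against 303.3, 253.7 and 270.9 in MSCs, with overlap, and 50.64, 75.58 and 53.94 against 43.01, 22.87 and 28.67 in NIH3T3 cells, without.

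A small set of windows moved the same way in all 3 comparisons of CK666 with control, which share no library, although both 4 h comparisons come from one experiment. Of 319 pairs of overlapping windows tested in MSCs at 24 h, MSCs at 4 h and NIH3T3 cells at 4 h, 8 had an adjusted p under 0.05 and 1 sign throughout (2.51%, background 1.11%). Of these 6 fell. Arid2 held 3 of them, all upstream of its start. The one 17915 bases before the start changed by -0.79, -0.56 and -1.14, with 549.5, 479.8 and 540.2 against 301.3, 383.7 and 379.1 in MSCs at 4 h, and the others by -0.46, -0.49 and -0.84 (chr15:96283793-96284552) and by -0.27, -0.23 and -0.64 (chr15:96285409-96285988). Ing3 held 2, the one shown above (-0.88, -0.55 and -1.46) and chr6:21909680-21910198 (-0.74, -0.31 and -0.63). At the first, the 24 h counts were 326.0, 355.4 and 312.8 in the controls, 191.0, 178.4 and 173.0 with CK666 and 234.1, 218.6 and 250.5 with CytoD, so that both treated groups lay below the controls (CytoD -0.50, adjusted p = 0.00121). The window after Ss18 changed by -1.43, -0.59 and -1.03, with 459.7, 454.5 and 590.5 against 342.1, 320.9 and 334.1 in MSCs at 4 h. Only 2 of the 8 rose, the Arid1a intron window (1.17, 0.78 and 0.79) and the Yeats4 window 13836 bases after the start (0.93, 0.44 and 1.02).

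Over all windows of the family that overlapped between the experiments, the changes with CK666 were only loosely related. Across windows, the log2 changes at 24 h and 4 h in MSCs had a Pearson r of 0.32 and a Spearman rho of 0.325 (356 pairs), those at 24 h in MSCs and 4 h in NIH3T3 cells 0.22 and 0.208 (332 pairs), and those of the 2 cell types at 4 h 0.243 and 0.262 (305 pairs). The pairs share sequence and base composition, windows are not independent replicates, and r is a description. In all 372 pairs of windows overlapped, taking in 346 of the 464 and 356 of the 492.

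Without treatment the cell types differed at many windows of the family. Between control MSCs and control NIH3T3 cells at 4 h, 130 of 492 were called (26.4%, background 34.5%), 90 higher in MSCs (background 18.3%) and 40 higher in NIH3T3 cells (background for lower 16.2%). Of the calls 69.2% were higher in MSCs, and 52.6% with total counts, which moved the median of all windows by -0.233, so that the balance of directions depends on the scaling. The 30 calls with the largest changes were kept with each library left out. Smarca2 had an intergenic window 25215 bases before a start with 442.6, 363.4 and 427.8 normalised counts (joint scale) in control MSCs and 10.8, 17.36 and 16.27 in control NIH3T3 cells. It was open in MSCs alone (4.76 ± 0.20, adjusted p = 3.34e-36). MSCs also stood higher at a Smarca2 window in an intron 7849 bases after a start (4.12 ± 0.21), in an intron of Trrap 1030 bases after its start (4.12 ± 0.18), and in an intron of Bcl7c, a BAF subunit related to Bcl7a (4.23 ± 0.32). In NIH3T3 cells, an intron window of Wdr66 nearest to Bcl7a (-5.07 ± 0.97) and windows near Arid1b (-4.09 ± 0.59), the paralogue of Arid1a, and Ruvbl1 (-3.10 ± 0.24) stood higher.

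Start sites differed less. Of 53, 1 was called by edgeR (background 24.0%), a start of Smarcd3, a BAF subunit of muscle and heart (1.27), and with DESeq2, total counts or RLE size factors none was, 30 having an unadjusted p under 0.05. At an adjusted p under 0.05, 26 differed (49.1%, background 64.0%), 24 higher and 2 lower in MSCs, but with total counts 13 were higher and 15 lower, and with GC offsets 15 and 10. The median log2 difference of the family's TSS windows was 0.219, below the 0.324 over all TSS windows. With total counts these medians were -0.0124 and 0.0921. Ino80c (0.99), Ss18 (0.86), a start of Dpf1 (0.83), Actr8 (0.74) and Brd8 (0.71) stayed higher in MSCs in all 20 alternatives. So did Smarce1 (0.59), a start of Smarca2 (0.50) and Ruvbl1 (0.46), while Ino80d (-0.46) stayed higher in NIH3T3 cells in all 20. Another start of Dpf1 lay lower in MSCs (-0.45, adjusted p = 0.024) and a further start higher (0.88, adjusted p = 0.00501), each kept in 17 of the 20. Ino80c had 587 ± 13.5 normalised counts per kb in control MSCs and 295 ± 17.6 in control NIH3T3 cells, and Ino80d 533 ± 45.3 and 733 ± 55.5 (SD, n = 3).

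**Figure D4:**
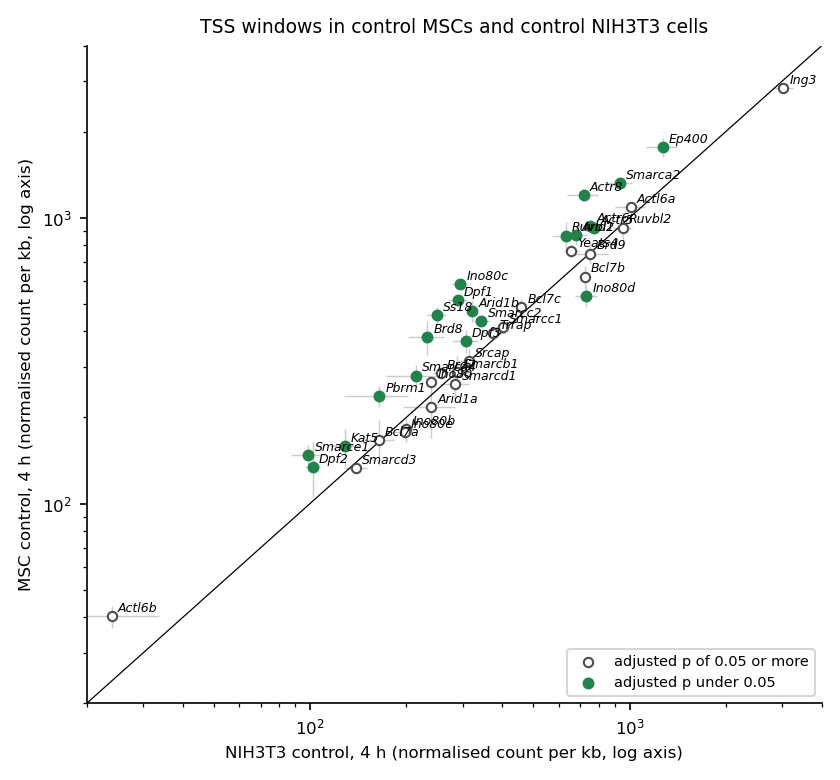
Level of the TSS window of each gene in control MSCs (y axis) and control NIH3T3 cells (x axis) at 4 h, in normalised counts per kb on log axes. Points are means of 3 libraries, bars are SD, the line marks equal levels and green points had an adjusted p under 0.05 with TMM scaling. Ing3 is highest and Actl6b lowest in both cell types, and most green points lie above the line, a balance that does not hold with total counts (13 higher, 15 lower). With TMM scaling the median log2 difference over all TSS windows was also above 0 (0.324, beside 0.219 for the family).

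Other genes of the same machines and other remodelers were counted for comparison, from lists drawn up by name. For 18 partners of these complexes, among them actin (Actb), Yy1 and Dmap1, edgeR called 3 of 224 windows with CK666 and 3 with CytoD at 24 h (1.34% each), 4 of 223 in MSCs at 4 h (1.79%) and 7 of 213 in NIH3T3 cells (3.29%). None of their 21 TSS windows was called in these comparisons. For 28 genes of the ISWI, CHD and NuRD families, which carry no Arp4, 14 of 558 windows were called with CK666 (2.51%, 11 higher and 3 lower) and 7 with CytoD (1.25%, 2 higher and 5 lower) at 24 h, 4 of 527 in MSCs (0.759%, all higher) and 16 of 506 in NIH3T3 cells (3.16%, 8 each way), with 1 of 40 TSS windows called with CK666 at 24 h and 2 of 37 in NIH3T3 cells. Beside the 1.98%, 2.20%, 0.465% and 2.72% of the BAF, INO80 and TIP60 genes, both lists lay lower with CytoD and higher at 4 h in both cell types, and lay on either side with CK666 at 24 h.

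The short motifs were counted in the called windows as a description, over the same central 500 bases. At 24 h GGAATG was present in 3 of the 6 windows called lower and 1 of the 12 called higher, beside 22.9% of the family's windows and 29.3% of all tested windows. The 4 h windows did not repeat this, with GGAATG in 1 of the 6 called lower and 2 of the 8 called higher. At 4 h TGANTCA was present in 4 of the 6 windows called lower and 0 of the 8 called higher, beside 27.6% and 34.7%, and TGTGGT in 3 of 6 and 6 of 8, beside 35.6% and 38.6%. In the 24 h windows TGANTCA was present in 2 of the 6 called lower and 2 of the 12 called higher, and TGTGGT in 2 of 6 and 5 of 12. TTGGCA was present in 25.3% of the family's windows and 26.7% of all at 24 h. These counts are small, motif letters were matched exactly on both strands, and a match does not show that a factor binds.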

How the data were processed

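ATAC-seq was done on 21 libraries used here (7 groups of 3). The authors made the libraries by Omni-ATAC, processed reads with PEPATAC, bowtie2 and MACS2, and deposited raw read counts per window of the union of peaks, in 2 tables. The labels name mm10. The sources used here do not give read filters, the transposase shift or tool versions. Peak calling fixes which windows exist, so closed sites of these genes are not seen. Windows were assigned to GENCODE vM21 starts in Python 3.11.15. Overlaps between the 2 tables for the 3 comparisons of CK666 with control were found with bedtools 2.31.1. Counts were fitted with edgeR 4.0.16 (R 4.3.3; filterByExpr, TMM, quasi-likelihood test, Benjamini-Hochberg adjustment) in 4 fits: the 24 h libraries, MSC and NIH3T3 at 4 h, and both cell types at 4 h. Normalised counts are scaled to the mean effective library size of a fit, and levels in both cell types come from the joint fit. DESeq2 1.42.0 was an alternative. The fits were tested on simulated counts: 81 of 100 windows changed by 1.5 (log2) were recovered at 24 h for CK666, 79 in MSCs at 4 h, 73 in NIH3T3 cells and 45 in the interaction. The changed windows were drawn only from those with a mean of at least 20 counts, so recovery in windows with fewer counts was not tested. The 3 replicates of a group may share a culture, so p-values measure the spread between these samples. Sequences are from GRCm38 and RefSeq. Members and lists were chosen with earlier results of these data known. Named are each gene's best covered TSS window, all called windows (at most the 30 largest), and, with fewer than 3 calls, the 3 smallest p. Libraries of one group had rank correlations from 0.872 to 0.952 and none were duplicates.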

Additional observations from a re-analysis of the deposited data

Results flagged for a closer look

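At 6 windows the effect of CK666 at 4 h differed between MSCs and NIH3T3 cells, by the interaction term of edgeR's quasi-likelihood test over all windows (background 1.40%). The values are the log2 change in MSCs minus that in NIH3T3 cells. They were -1.95 near Bcl7a (MSC change -0.09, NIH3T3 change 1.92), -1.73 near Ino80c (-0.03 and 1.73), 1.68 near Ing3 (0.13 and -1.52), -1.43 near Bcl7b (0.45 and 1.91), 1.14 near Ep400 (0.12 and -0.97) and -1.06 near Phf10 (0.32 and 1.41). In 5 of these, all but Bcl7b, the adjusted p of the MSC change lay between 0.306 and 0.903, and in all 6 that of the NIH3T3 change was 0.00863 or lower. Groups of 3 libraries are too small for a test of single outlying libraries.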

How the results depend on the processing

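The counts of called windows changed by over 1.5 times where the assignment or the threshold changed. In the order CK666 at 24 h, CytoD, CK666 against CytoD, CK666 in MSCs at 4 h, CK666 in NIH3T3 cells, interaction and control MSCs against control NIH3T3 cells, a limit of 5 kb gave 2, 3, 4, 0, 2, 3 and 32, and an adjusted p under 0.05 with no fold limit 43, 51, 42, 34, 61, 22 and 237. The 5 kb limit keeps fewer windows of the family, and the looser threshold admits more windows anywhere. Shares over all windows were not counted under these 2 rules, so the counts do not show a change in share. Starts of any gene type gave 6 for CytoD, and 1 start per gene gave 1 in MSCs at 4 h. A mean of at least 20 counts gave 5 for CK666 at 24 h, 7 for CK666 against CytoD and 1 in MSCs at 4 h. TSS windows at an adjusted p under 0.05 numbered 4 for CK666 at 24 h with total counts or a mean of 20, 2 with GC offsets, with or without the replicate block, 5 (total counts) and 6 (mean of 20) for CytoD, and 5 in MSCs at 4 h (mean of 20). With each library left out, called windows ranged over 6 to 13, 6 to 11, 8 to 13, 1 to 3, 9 to 14, 4 to 9 and 117 to 134 in the same order, and TSS windows over 1 to 2 (CK666 at 24 h), 5 to 10 (CytoD), 0 to 5 (MSCs at 4 h), 3 to 10 (NIH3T3) and 17 to 26 (control cell types). Replicate numbers do not pair the samples (correlations of deviations between same-numbered libraries from -0.058 to 0.028). The replicate block gave 5 TSS windows in NIH3T3 cells in place of 9, and moved no other of these counts by over 1.5 times. GC offsets, alone and with the block, reversed 5 start sites between control cell types: Smarcc2 (-0.10, -0.10), Arid2 (-0.082, -0.080), Arid1b (-0.16, -0.16), Actr5 (-0.18, -0.18) and Smarca4 (-0.046, -0.043). The cause was not tested. Over the called windows (the 30 largest between control cell types) and the smallest-p windows in MSCs at 4 h, start sites not counted, 1298 values kept their direction and side of the limit, 137 kept the direction only and none reversed. Median window counts of 22 to 29 limit what smaller changes can show.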
